A study of Mus musculus with 2 samples.

Results

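The Acta2 locus of mouse cardiac fibroblasts was described peak by peak from ATAC-seq, an assay in which a transposase cuts accessible chromatin and tags it for sequencing, so that reads pile up at open sites. The locus was taken as every peak of the deposited peak table that is assigned to Acta2 or Stambpl1, together with any other peak on chromosome 19 between 34.15 and 34.3 Mb. This rule found 10 of the 63316 peaks, all of them inside the window. Of these, 4 are assigned to Stambpl1, 2 to Acta2 and 2 to Fas, and 2 are intergenic. The locus was chosen with its values in these libraries already known, so its values are a description and none of them was tested.

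The libraries, 1 per group, came from primary murine cardiac fibroblasts, and both groups received TGF-β, at 5 ng/ml for 24 h by the study's account. The NC group is the control, which the study describes as transfected with scrambled siRNA, and the SiPiezo2 group received siRNA against Piezo2, a mechanically gated cation channel. Neither the strain nor the age of the mice is in the labels, and a general description of the series names a Cre-mediated Tet3 knockout instead. The sample labels and the study's account of its ATAC-seq both name siRNA against Piezo2, and the groups follow them. Why the general description differs was not settled. An siRNA acts on the transcript, so reads over the Piezo2 gene would not check the knockdown. With 1 library a group, no difference has a replicate check, and every interval below covers counting error only unless it is named as widened.

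Acta2 encodes α-smooth muscle actin, the actin isoform of smooth muscle that fibroblasts take up into stress fibres when they become myofibroblasts, and it is the most used marker of that state. Its transcription is known to depend on serum response factor (SRF) with its myocardin-related cofactors, which bind CArG boxes, on TEAD factors, which bind MCAT elements, and on SMAD proteins downstream of TGF-β. Stambpl1 encodes a zinc-dependent deubiquitinase of the JAMM family that cuts lysine-63-linked ubiquitin chains. Fas encodes a death receptor of the tumour necrosis factor receptor family. Stambpl1 and Acta2 face each other on opposite strands and end next to each other, while Acta2 and Fas point away from each other.

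The promoter of Acta2 is shown by its matches to these elements, because the Acta2 start peak lies over it. A CArG-like match was taken as CC, 6 letters of which at least 5 are A or T, and GG. An MCAT match was GGAATG or its reverse complement CATTCC. An AP-1 match was TGAGTCA or TGACTCA. The TATA-like string TATATAA was searched on both strands as well, and no match overlapped another. The search covered 300 bases for each gene, 250 before and 50 after the RefSeq start in GRCm38.p6 that lies nearest to the start of the transcript used in the peak table. The sequences below are 30 bases long, from RefSeq, 5′ to 3′ on the gene's strand, with the matching letters in capitals.
Acta2 MCAT match, 146 bases before the RefSeq start, chr19:34255502-34255531, minus strand: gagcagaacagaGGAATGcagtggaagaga
Acta2 upper CArG-like match, 84 bases before the start, chr19:34255438-34255467, minus strand: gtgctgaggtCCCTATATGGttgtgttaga
Acta2 lower CArG-like match, 34 bases before the start, chr19:34255388-34255417, minus strand: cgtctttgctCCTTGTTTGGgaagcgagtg
Fas CArG-like match, 82 bases before the start, chr19:34290567-34290596, plus strand: tctgggaagaCCTGAATAGGagcgaagcgg

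A further TATATAA match began at base 9 after the Acta2 RefSeq start, and a further AP-1 match lay 211 bases before that of Fas. The Stambpl1 window held no CArG-like match and a single MCAT match, 28 bases after the start. Its other 3 RefSeq windows, at starts further into the gene, held no CArG-like match either. Over the 32851 RefSeq promoter windows of the mouse, 9.98% held a CArG-like match, 0.822% held 2 or more, 14.7% an MCAT match, 5.20% an AP-1 match and 3.24% TATATAA. A match is a string of letters and not a bound site. RefSeq places the Acta2 start 217 bases downstream of the start of the transcript used in the peak table, a transcript of 14501 bp in either build, and the Acta2 start peak extends 408 bases into that transcript.

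The peak table gives, for each peak, 1 read density per library that the authors normalized. Reads had been counted in a window of 2000 bp around the centre of each peak, so that densities compare peaks on an equal length. The reads behind the densities came out whole for 100% of the peaks. Summed over all windows, NC had 4615335 reads and SiPiezo2 had 2754046, or 0.597 times as many, and the median window held 58 reads in NC and 36 in SiPiezo2. Log2 ratios are log2((SiPiezo2 + 1)/(NC + 1)) of the densities, and the thresholds of 0.66, 1.5 and 0.5 of NC were applied to this ratio with the 1 added to each density. Percentages are the plain SiPiezo2 density as a percent of the NC density, with 95% exact binomial (Clopper-Pearson) intervals from the reads. Among peaks called in both libraries, the typical variance of the ratio was 2.05 times that of counting, and intervals widened accordingly by a factor of 1.43 are named as widened. Positions are those of the table, whose gene coordinates are GRCm39 although the labels name mm10.

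Along the locus, 9 of the 10 peaks had a lower density in SiPiezo2 than in NC, where 63.7% of all peaks did, and 1 had a higher density. Densities in NC ran from 24.7 to 102 with a median of 34.01, above the median of 24.5 over all peaks. In SiPiezo2 they ran from 7.81 to 38.6 with a median of 18.95, under the median of 22.1 over all peaks. The median log2 ratio was -0.99 over the locus and -0.13 over all peaks. There were 6 peaks below 0.66 of NC, where 13.5% of all peaks were, and none above 1.5 of NC, where 3.21% were. There were 5 peaks below 0.5 of NC, against 2.76% of all peaks. As the locus was chosen from this contrast, nothing is read from these counts beyond the description.

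**Figure D1:**
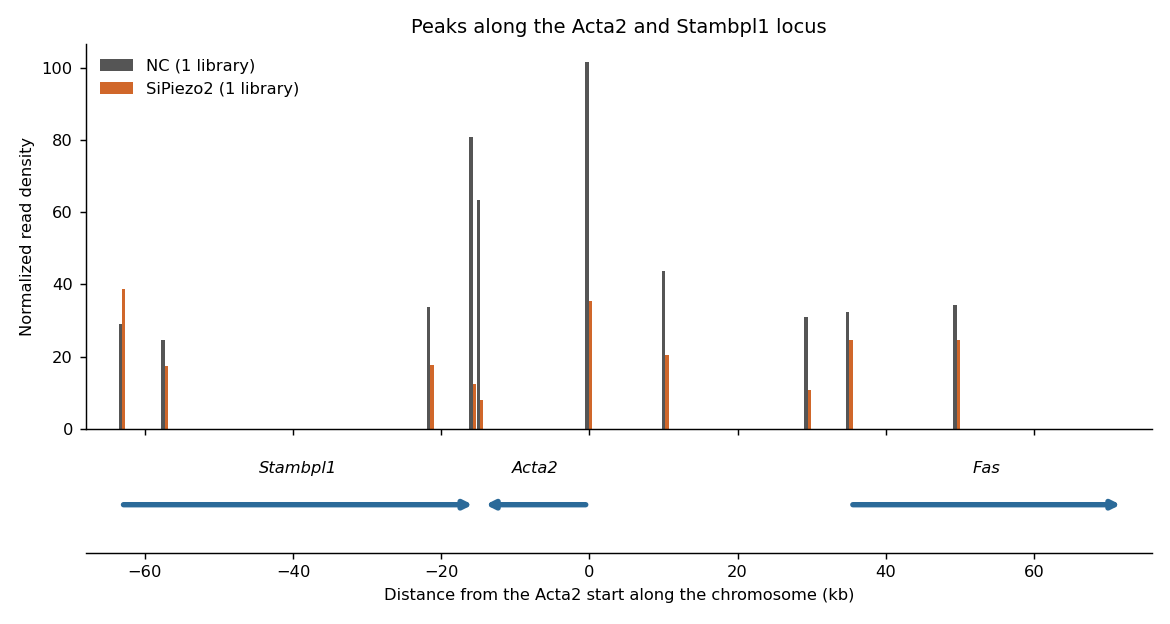
Normalized read density (vertical axis) of the 10 peaks in NC (grey bars) and SiPiezo2 (orange bars), 1 library each, by distance in kb from the start of Acta2 along the chromosome, with the 3 genes drawn as arrows in the direction of transcription. The 3 tallest NC bars, 80.7 and 63.3 at the end of Acta2 and 102 at its start, stand beside SiPiezo2 bars of 12.4, 7.81 and 35.4.

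Stambpl1 (ENSMUSG00000024776) runs from 34169629 to 34217733 on the plus strand. Its start peak, from 34169530 to 34170344, was the widest of the locus at 814 bp and was called in both libraries. The density there was 28.9 in NC and 38.6 in SiPiezo2, from 71 and 61 reads. It was the one peak of the locus that was higher in SiPiezo2, at 133% of NC (95% interval 93.2% to 191%), a log2 ratio of 0.40. The interval included 100%. The next peak, in intron 1 of 10 from 34175501 to 34175818, was the weakest of the locus in NC. Its density was 24.7 in NC and 17.3 in SiPiezo2, from 58 and 28 reads, or 70.1% of NC (43.0% to 112%), and this interval included 100% as well.

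Further along Stambpl1 the ratio was lower. The peak in exon 6 of 11, from 34211357 to 34211732, had a density of 33.9 in NC and 17.6 in SiPiezo2, from 81 and 28 reads. That is 51.9% of NC (32.5% to 80.6%), a log2 ratio of -0.91, the 58th lowest of 2371 exon peaks. The peak in intron 10, the last intron of the gene, from 34217010 to 34217467, had a density of 80.7 in NC and 12.4 in SiPiezo2, from 199 and 19 reads. It stood at 15.3% of NC (9.05% to 24.6%), a log2 ratio of -2.61. This was the lowest ratio of 26569 intron peaks and the 3rd lowest of all peaks. The peak is assigned to Stambpl1 by its intron, lies 266 bp inside the Stambpl1 end, and has the Acta2 start as its nearest transcription start in the table. Thus the peaks of Stambpl1 differed among themselves, from 133% at its start to 15.3% at its end, and the intervals of the start peak and the intron 10 peak did not overlap.

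Acta2 (ENSMUSG00000035783) runs from 34218490 to 34232990 on the minus strand, and its end lies 756 bp from that of Stambpl1. The Acta2 end peak, from 34218131 to 34218346, lies 144 bp past the end of the gene and was the narrowest of the locus at 215 bp. Its density was 63.3 in NC and 7.81 in SiPiezo2, from 151 and 12 reads. It was at 12.3% of NC (6.24% to 22.2%; widened, 4.64% to 28.6%), a log2 ratio of -2.87, the lowest of all 63316 peaks. Its window shares 1000 bp with that of the intron 10 peak, so the reads of these neighbours overlap and they are not separate measurements. The pair frames the point where Stambpl1 and Acta2 meet.

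The Acta2 start peak, from 34232582 to 34233210, covers 220 bases before and 408 bases after the start of the transcript, and the table classes it as 5′ UTR. It had the highest density of the locus in NC, 102, ranked 346 of all peaks, and 35.4 in SiPiezo2, from 265 and 53 reads. It was at 34.8% of NC (25.4% to 46.9%), a log2 ratio of -1.50. Among the 14801 peaks within 1 kb of a transcription start its ratio was the 13th lowest, and the 3rd lowest of 2599 peaks classed as 5′ UTR. Below 0.66 of NC were 6.43% of the peaks near a start. Even so, the Acta2 start peak had the second highest SiPiezo2 density of the locus. The ratio was lower at the end of the gene than at its start. The intervals of these peaks did not overlap on counting error alone, but the widened intervals did, at 4.64% to 28.6% for the end peak and 22.2% to 53.4% for the start peak.

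Upstream of Acta2, 2 intergenic peaks lay between its start and that of Fas, 35.1 kb away. The one nearer to Acta2, from 34242977 to 34243510, has its centre 10.3 kb before the Acta2 start. Its density was 43.8 in NC and 20.3 in SiPiezo2, from 107 and 32 reads, or 46.4% of NC (30.3% to 69.5%), a log2 ratio of -1.07. The other, from 34262212 to 34262693, lies 29.5 kb from the Acta2 start and 5.61 kb before that of Fas. Its density was 30.9 in NC and 10.6 in SiPiezo2, from 72 and 17 reads, or 34.4% of NC (18.98% to 58.9%), a log2 ratio of -1.46. This was the 78th lowest of 19430 distal intergenic peaks. The intervals of both intergenic peaks lay under 100% and overlapped each other and that of the Acta2 start peak.

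Fas (ENSMUSG00000024778) runs from 34268066 to 34305172 on the plus strand. The Fas start peak, from 34267899 to 34268231, had a density of 32.2 in NC and 24.5 in SiPiezo2, from 78 and 39 reads, or 76.1% of NC (50.5% to 113%). The peak in Fas intron 1 of 8, from 34282320 to 34282776, had 34.2 in NC and 24.6 in SiPiezo2, from 83 and 39 reads, or 72.0% of NC (47.9% to 107%). Both intervals included 100%, and both Fas peaks were called in both libraries. The intergenic peak just before Fas thus had a lower ratio than the Fas start peak, with intervals that overlapped between 50.5% and 58.9%.

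**Figure D2:**
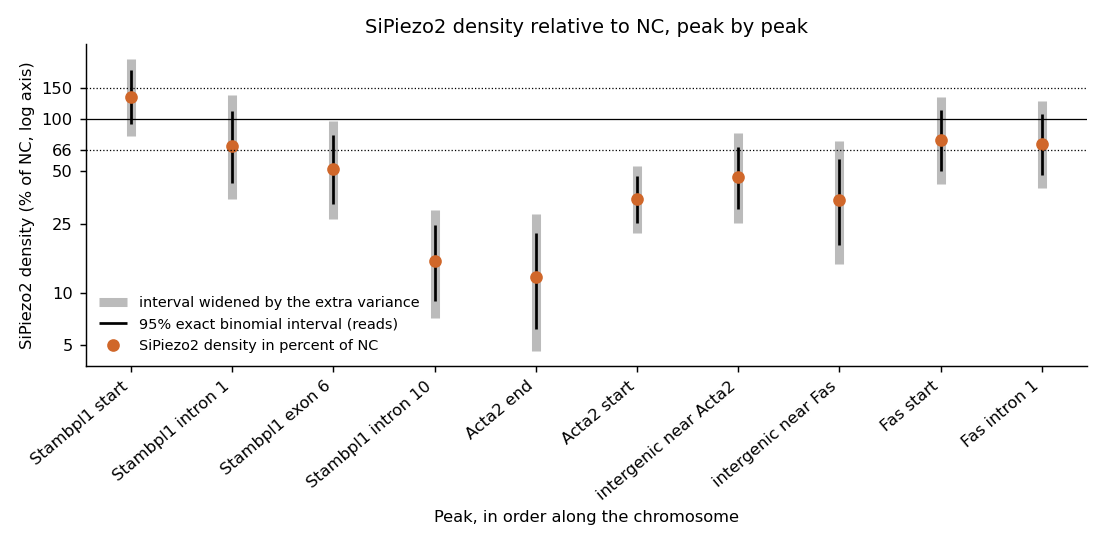
SiPiezo2 density in percent of NC (vertical log axis) for the 10 peaks in order along the chromosome, with the 95% exact binomial interval from the reads (black lines) and the widened interval (grey lines). A solid line marks equal densities and dotted lines mark the thresholds of 0.66 and 1.5 of NC. The 6 peaks from Stambpl1 exon 6 to the intergenic peak near Fas have both intervals below 100%, and the other 4 peaks do not.

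The intervals of 6 peaks lay below 100%, as for 12.6% of all peaks, and the same number did so when widened, as for 4.27% of all peaks. The widening rests on the median variance at peaks called in both libraries. The mean there was larger, 4.68 times that of counting, and intervals widened by it were not computed. All 6 peaks had been called in the NC library only, so the widening was not measured on peaks of their kind. These 6 follow one another without a break, from Stambpl1 exon 6 to the intergenic peak before Fas. The run spans 51.3 kb, and all 6 of its peaks are below 0.66 of NC. It was noticed after its values were seen. In the whole table, 6723 such runs were counted, 5307 of them single peaks, and 4 were as long as this or longer. The other 3 held 8 peaks at Vps53, 7 at Btnl12 and Lrrc58, and 7 at Rasl11b. At the stricter threshold of 0.5, the locus held a run of 5 peaks over 45.7 kb, from Stambpl1 intron 10 to the intergenic peak before Fas. This run was the longest in the table at that threshold, followed by one of 4 peaks. With only peaks whose windows do not overlap, the runs were of 5 and 4 peaks, with 8 and 2 runs at least as long in the table.

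All 6 peaks of the run and the peak in Stambpl1 intron 1 had been called in the NC library only, as 64% of all peaks were, and the other 3 in both. No peak of the locus was called in SiPiezo2 only. Peaks were 215 to 814 bp wide with a median of 457 bp, against 301 bp over all peaks.

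**Figure D3:**
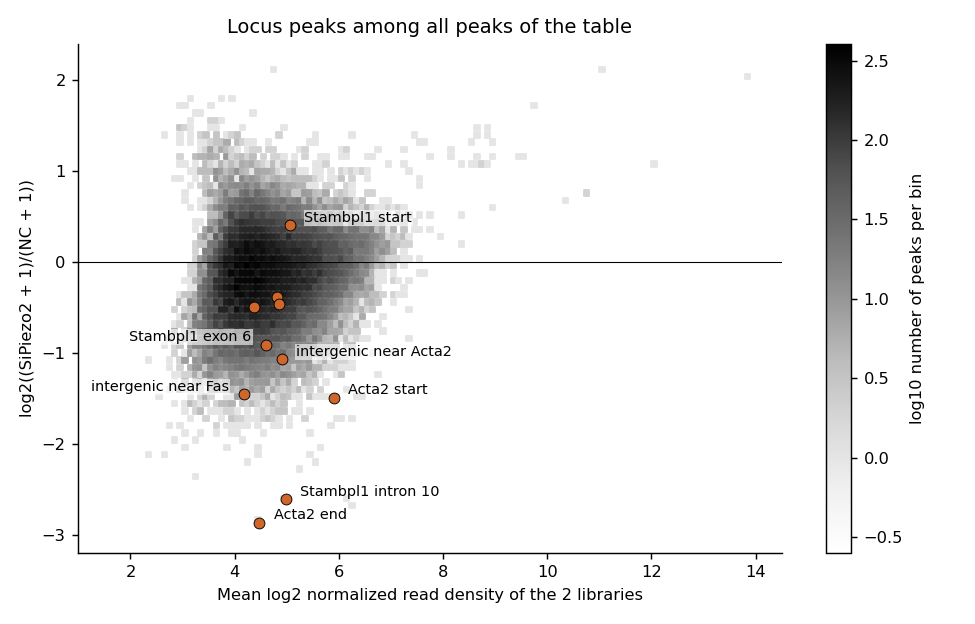
Log2 ratio of SiPiezo2 to NC (vertical axis) against the mean log2 density of both libraries (horizontal axis) for all 63316 peaks, binned and shaded by the log10 number of peaks, with the 10 locus peaks as orange points. The Acta2 end peak and the Stambpl1 intron 10 peak, at -2.87 and -2.61, lie at the lower edge of all peaks, and the Acta2 start peak lies at -1.50 among stronger peaks.

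Outside the window the ratios were nearer to 0. The last peak before the window, 34148645 to 34148863, had densities of 13.4 in NC and 14.4 in SiPiezo2, from 30 and 24 reads, a log2 ratio of 0.10. The first peak after it, 34346908 to 34347240, had densities of 16.8 and 14.0, from 38 and 23 reads, a log2 ratio of -0.25. Within 1 Mb on either side there were 42 other peaks with a median log2 ratio of -0.21 (quartiles -0.51 and -0.02). Of these, 5 were below 0.66 of NC, or 11.9%, near the 13.5% of all peaks. There was 1 below 0.5, where 2.76% of all peaks were, and none above 1.5, where 3.21% were. On plain densities without the pseudocount, 8 of the 42 were below 0.66 and 3 below 0.5. The lowest lay in an intron of Pank1, at -1.44 from 49 and 12 reads. That is 34.1% of NC, about the ratio of the Acta2 start peak and above those of both peaks at the end of Acta2. NC densities of the flanking peaks reached 65.5, under those of the Acta2 start and Stambpl1 intron 10 peaks. The 12 flanking genes with a peak, among them Lipa and the interferon-induced Ifit2, had a median log2 ratio of -0.03 on densities summed per gene. They ran from -0.91 to 0.30, and 8 were lower in SiPiezo2, as were 62.6% of all genes. There were 2 below 0.66 of NC, where 6.21% of all genes were, and none above 1.5, where 1.54% were.

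**Figure D4:**
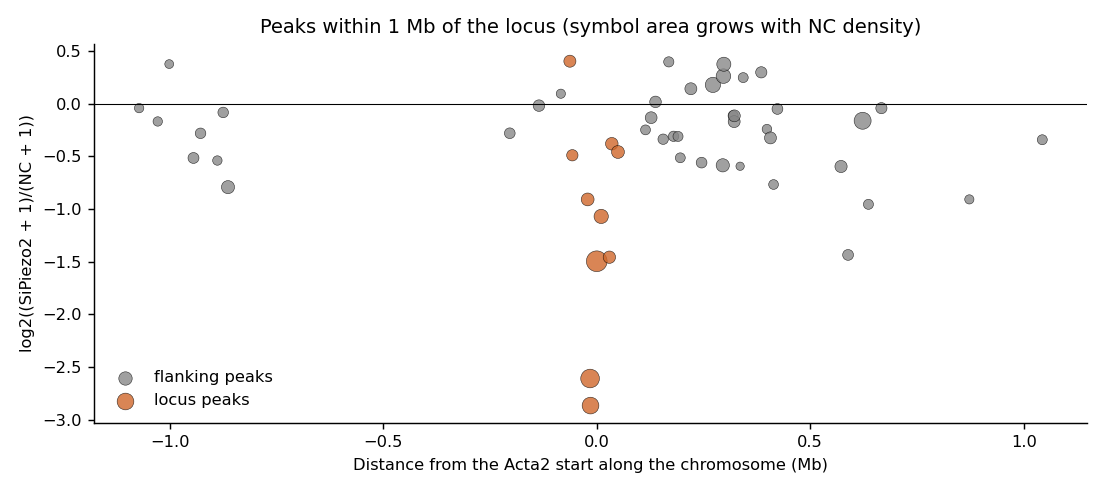
Log2 ratio of SiPiezo2 to NC (vertical axis) by distance in Mb from the Acta2 start for the 10 locus peaks (orange) and the 42 other peaks within 1 Mb of the window (grey), with symbol area growing with the NC density. Locus peaks reach -2.87, while the lowest flanking peak is at -1.44.

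Summed over the peaks that the table assigns to a gene, Acta2 had a density of 165 in NC and 43.2 in SiPiezo2, from 416 and 65 reads. This was 26.2% of NC (19.8% to 34.1%; widened, 17.6% to 38.2%), a log2 ratio of -1.91, the 2nd lowest of 16934 genes with a peak. Below 0.66 of NC were 6.21% of genes. Stambpl1 summed to 168 in NC and 85.8 in SiPiezo2, from 409 and 136 reads, or 51.0% of NC (41.7% to 62.1%), a log2 ratio of -0.96 and rank 174. The genes had nearly equal summed densities in NC. The intervals of their ratios did not overlap, but the sums share reads through the intron 10 and Acta2 end windows, and the interval of the Acta2 start peak alone, 25.4% to 46.9%, overlapped that of Stambpl1.

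The value of Stambpl1 turned on its intron 10 peak. Without it, the other 3 peaks of Stambpl1 summed to 84.0% of NC (66.4% to 106%), a log2 ratio of -0.25, and the interval included 100%. With each peak given to the nearest transcription start instead, Acta2 held 4 peaks at 26.2% of NC (21.4% to 32.0%) and Stambpl1 the 3 others. Acta2 with its start peak alone, which is what remains with separate windows or with genes assigned by position, had a log2 ratio of -1.50. Separate windows were kept from the lowest position up. The intron 10 peak therefore stayed and the Acta2 end peak dropped out by their order alone. Fas summed to 74.0% of NC (55.7% to 97.6%), with a widened interval of 49.3% to 110%. The whole locus summed to 474 in NC and 209 in SiPiezo2, or 44.1% (38.9% to 49.9%), and to 49.0% over the 9 peaks with separate windows.

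Other genes of the actin family were compared with Acta2 on densities summed per gene. Of 5 isoform genes, Acta1, Actc1 and Actg2, which encode the skeletal, cardiac and enteric smooth muscle actins, had no peak. Actg1, which encodes cytoplasmic γ-actin, had 1 peak with a density of 144 in NC and 49.9 in SiPiezo2, a log2 ratio of -1.51. Actb, which encodes cytoplasmic β-actin, had 294 and 160 over 3 peaks, a log2 ratio of -0.87. Both were below 0.66 of NC, where 6.21% of all genes were, and above Acta2 as summed over its 2 peaks. The order of Acta2 and Actg1 turned on the Acta2 end peak, since Acta2 with its start peak alone was at -1.50, level with Actg1. Unlike the Acta2 start peak, the Actg1 peak does not lie within 1 kb of a transcription start. Actb was at -0.40 with only its peaks within 1 kb of a transcription start, no longer below 0.66 of NC.

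Of 22 genes for proteins that work with actin in contractile fibres, 20 had a peak. Their median log2 ratio was -0.37, where all genes had -0.09, and it stayed below 0 under each other scaling of the libraries (-0.33 to -0.23). In the deposited scaling the ratio was below 0 for 18 of the 20 and for 62.6% of all genes. Below 0.66 of NC were 4, against the 6.21% of all genes, and none was above 1.5, where 1.54% of genes were. These were Myl9, the regulatory light chain of smooth muscle and non-muscle myosin, at -1.08, Tagln, the actin-binding protein SM22α, at -0.98, Lmod1, the smooth muscle leiomodin that seeds actin filaments, at -0.70, and Cnn3, acidic calponin, at -0.61. Under other scalings Cnn3 was no longer below 0.66 of NC in any of the 3 tried (-0.58 to -0.47), nor Lmod1 with median-of-ratios scaling (-0.56), while Myl9 and Tagln remained below it. At the other end, Vcl, the adhesion protein vinculin, was at 0.01 and Cnn1, smooth muscle calponin, at 0.04. Acta2 was below every member of the list, with its start peak alone as well.

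Of 19 genes for factors known to act on Acta2 transcription, 18 had a peak, all but Tead2. Their median log2 ratio was -0.02, and it lay above 0 under each other scaling of the libraries (0.06 to 0.12). The 1 member of 18 below 0.66 of NC, where 6.21% of all genes were, was Tead3, a TEAD factor, at -0.60. It lay at the threshold and was not below it under any of the 3 other scalings (-0.57 to -0.46). Next came Purb, a single-strand binding repressor of Acta2, at -0.48. The highest were Klf4, a repressor of smooth muscle genes, at 0.17 and Smad3, a mediator of TGF-β signals, at 0.21. Srf, the CArG box factor itself, was at -0.13, and its cofactor genes Mrtfa, Mrtfb and Myocd were at -0.20, 0.07 and 0.13.

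Of 14 genes for JAMM family proteases and their partners in endosomal sorting, the functional neighbours of Stambpl1, 12 had a peak. Their median log2 ratio was -0.05, and it lay above 0 under each other scaling (0.02 to 0.09). The 1 member of 12 below 0.66 of NC, against 6.21% of all genes, was Stam, an adaptor of endosomal sorting, at -0.70. It was not below it with median-of-ratios scaling (-0.57) or with recovered reads at the same total (-0.46). Next came Psmd14, the deubiquitinase of the proteasome lid, at -0.50. The highest were Usp8, an endosomal deubiquitinase, at 0.13 and Eif3f, a translation initiation factor subunit, at 0.30. Stambp, the closest relative of Stambpl1, was at -0.36 from 128 and 67 reads.

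**Figure D5:**
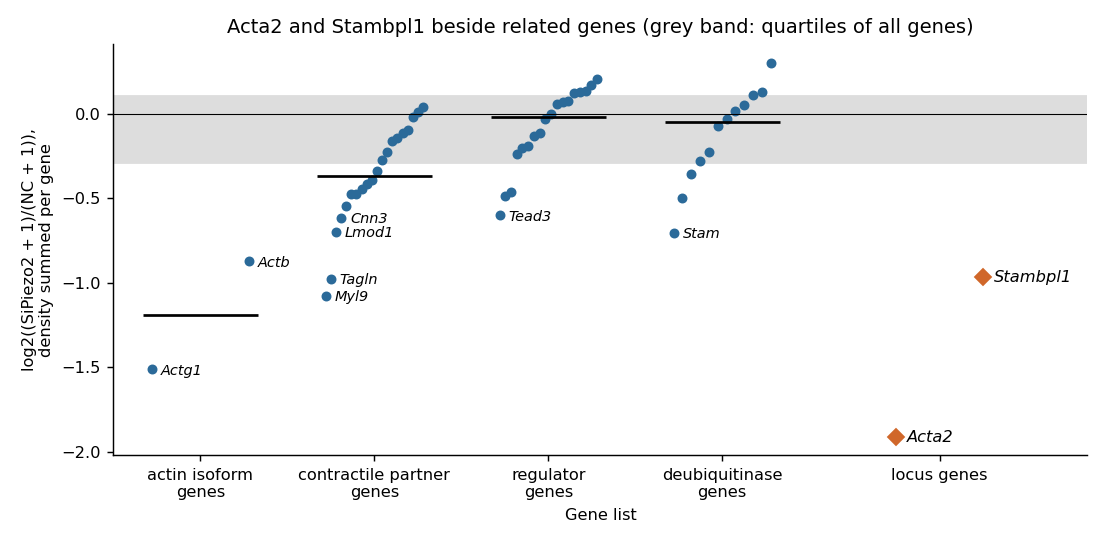
Log2 ratio of SiPiezo2 to NC (vertical axis) on densities summed per gene, for 4 gene lists (blue points, 1 per gene with a peak, black lines at the medians) and for Acta2 and Stambpl1 (orange diamonds). The grey band spans the quartiles of all genes. Acta2, summed over its 2 peaks at -1.91, lies below every gene of the lists, and Actg1 at -1.51 is the nearest, but Acta2 with its start peak alone is at -1.50.

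Among genes with at least 200 reads in both libraries together, those with a log2 ratio nearest to that of Acta2 included Csdc2, Fbxl18, Actg1 and Thbs1. Csdc2 was at -1.61, Fbxl18 at -1.53 and Thbs1, which encodes the matricellular protein thrombospondin 1, at -1.28. The values of Fbxl18 and Thbs1 depended on which peaks were summed. Fbxl18 was at -0.89 with separate windows and within 1 kb of a transcription start, and Thbs1 was at -1.68 with separate windows and -0.18 within 1 kb of a start. The measure of likeness was the ratio between these 2 libraries and nothing else.

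Genes of cardiac cell types were compared between the libraries, with densities summed over each list. A ratio between the libraries does not show which cells either one holds, so the labelled cell type was not tested. Of 9 fibroblast genes, 8 had a peak, with a median log2 ratio of -0.27. Their densities summed to 91.1% of NC, a sum in which Ddr2, a collagen receptor, held 464 of 1038 in NC at 99.8% of its NC density in SiPiezo2. The collagen gene Col1a2 was at -0.50 and Postn, which encodes the matricellular protein periostin, at -0.49, while Dcn, which encodes the proteoglycan decorin, was at 0.21. Of the cardiomyocyte genes, Myh6, Myh7, Tnni3 and Nppa had no peak, and the 3 of 7 that had one, Actn2, Tnnt2 and Ryr2, summed to 104%. Endothelial genes, 5 of 6 with a peak, summed to 108%, with log2 ratios from -0.10 at Kdr and -0.06 at Tek to 0.41 at Emcn and 0.70 at Cdh5. Macrophage genes, 2 of 5 with a peak, Csf1r and Ptprc, summed to 84.0%.

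Genes of mural cells, which also express Acta2, had a peak in 5 of 7 cases and summed to 78.7% of NC. Rgs5, a pericyte marker, was at -1.16 (126.7 in NC and 56.0 in SiPiezo2), Notch3 at -0.50 and Pdgfrb at -0.46, while Abcc9 was at 0.09 and Cspg4 at 0.16. Kcnj8 and Des had no peak. The part of mural cells in the values of the Acta2 locus was not tested, and fewer cells with an open locus cannot be told apart from a less open locus in each cell.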

How the data were processed

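ATAC-seq libraries of 2 samples were analysed, 1 in each group, grouped by the labels. The authors deposited a table of 63316 peaks whose signal columns are read densities, 1 per library, normalized by the authors. That they regressed log2 ratios on mean log2 densities was inferred from the table's columns and is not stated in the methods. The labels name BWA 0.7.12 and mm10, and the methods name MACS2 peak calling. The authors' columns of log2 ratios, fold changes and p-values were not used. The methods describe minced tissue and another kit than the labels do.

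Whole reads per 2000 bp window were recovered from the 2 densities (tolerance 0.02 reads, in proportion above 200 reads; slope of the regression 0.17), on the assumption that the normalization adds 1 read per window, as MAnorm does, which was taken off. The reads and every interval rest on this assumption. Median depth was 58 and 36 reads per window, and intervals cover counting error, which reads shared between overlapping windows make too narrow for sums. The mean of the variance over counting variance was 4.68 and its median 2.05. Densities were summed per gene by the table's symbol. Log2 ratios have a pseudocount of 1, which understates changes of weak peaks. No test was made across 1 library per group.

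The locus, the lists and the named genes were chosen with earlier results of these data known. Named were every locus peak and, per list, members below 0.66 or above 1.5 of NC, or the 2 lowest and 2 highest where fewer than 4 passed, and the 5 genes nearest to Acta2, of which 1 is not reported here; Srf, Mrtfa, Mrtfb, Myocd, Stambp, Pdgfrb, Vcl and Cnn1 were added for context after their values were seen. Alternatives for the pseudocount (0.1), scaling, minimum reads (20), threshold (2-fold), window overlap, flank (5 Mb) and gene assignment were tried. Recovery and intervals were tested on simulated data with counting error only and the same added read. That simulation could test neither the added-read assumption nor intervals under the larger variance of the real data. Scripts ran in Python 3.11.15 with matplotlib 3.10.9, scipy 1.17.1, pandas 2.3.3 and numpy 2.4.6.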

Additional observations from a re-analysis of the deposited data

How the results depend on the processing

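Of 73 alternative values for the sums, counts and medians, 67 moved by less than the counting interval or by under 1.5 times for counts. The others were the sum of Acta2 at -1.50 with separate windows and with genes assigned by position, where the Acta2 end peak drops out, and the sum of Stambpl1 at -0.25 by nearest transcription start, chosen after seeing the data. The flanking median was -0.075 with median-of-ratios scaling and -0.00033 with recovered reads at the same total, and the actin median was -0.40 within 1 kb of a transcription start, where only Actb has a peak. Some of the 67 values had no room to move. The minimum of 20 reads changed none of them, and all 10 locus peaks already lie inside the window. With median-of-ratios scaling the regulator and deubiquitinase medians, near 0 as deposited, were 0.12 and 0.09. The median over all peaks was -0.13 as deposited, 0 with median-of-ratios scaling, -0.05 with densities at the same total and 0.02 with recovered reads at the same total, and 9 of the 10 locus peaks were lower in SiPiezo2 under each.

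Depth limits single peaks, the Acta2 end peak resting on 12 reads in SiPiezo2. No paired analysis was possible because each group has 1 library, and leaving out a replicate was not possible for that reason either.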
